A study of Mus musculus with 54 samples.

Results

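Undifferentiated mouse embryonic stem cells carrying EZH2 A677T were compared with the equal-weight mean of cells carrying EZH2 R679C, K634E or K563E, in 12 RNA-sequencing libraries chosen by their labels from the 54 samples of the series. Each of the 4 lines was represented by 3 libraries, and no library of the line with wild-type EZH2 entered the comparison. All 4 lines are Ezh2 fl/Δ heterozygotes, with 1 floxed and 1 deleted Ezh2 allele, that express an added EZH2 variant; the series lists 5 variants as associated with Weaver syndrome. The comparison asks how far A677T cells differ from cells with other variants of that kind, not how any line differs from wild type. Each variant stands in 1 line here, so differences due to the variant and other differences between lines cannot be told apart. A further 12 libraries of the same lines, taken after withdrawal of 2i and LIF and a short treatment with all-trans retinoic acid (ATRA), were used to see which differences were also found there. The labels do not state whether a line is a clone or a pool, how the variant is driven, or whether replicates came from separate cultures, so the p-values reflect sample-to-sample variation that may be technical only.

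EZH2 is the methyltransferase within Polycomb repressive complex 2 (PRC2). The complex marks lysine 27 of histone H3 and holds developmental genes in a repressed state. In embryonic stem cells its targets are mostly genes for lineage transcription factors, and Polycomb repressive complex 1 (PRC1) binds many of the same genes. Weaver syndrome is an overgrowth syndrome caused by heterozygous EZH2 variants.

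The libraries held 16144503 to 29614420 counts, and 14712 of the 55401 genes in the table passed the filter on low counts and were tested. All 10 markers of embryonic stem cells were expressed, at a summed 5239 to 5936 CPM (counts per 1e+06 library counts after TMM scaling) in A677T libraries and 5477 to 6069 CPM in the 9 others, and none of them was called. In bulk RNA, fewer cells of a type and less RNA per cell cannot be told apart. A677T replicate 3 stood apart. Its counts fell with the GC content of genes (Spearman correlation -0.60 across genes, against -0.39 to 0.50 in the other 11 libraries), it had the highest mitochondrial share (2.7%), and it lay at 50.3 on the first principal component, where the others lay between -23.1 and 14.9. Each test was therefore also run without it and with a correction for GC content.

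A677T cells differed from the mean of the other 3 lines at 1502 genes, 10.2% of those tested, with 784 higher (5.33%) and 718 lower (4.88%) at an adjusted p under 0.05 in edgeR's quasi-likelihood test. Most differences were small, and the large ones were mostly decreases. Of the genes called, 24 were at least 2-fold higher and 170 at least 2-fold lower. Over the 23 alternative fits this imbalance ranged from 17 to 55 higher and from 146 to 231 lower. The lower genes had a median level of 4.5 CPM in A677T cells and 7.4 CPM in the other lines, and the higher genes 28.9 CPM in A677T cells and 21.9 CPM in the other lines. In 506 of the higher and 520 of the lower genes, all 3 A677T libraries lay beyond all 9 others. This was counted only among called genes, whose calls rest on the same libraries, so it adds no separate support. Without A677T replicate 3, 996 of the 1502 calls held with the same sign. With the GC correction 2701 genes were called, among them 1467 of the 1502 with the same sign. That fit called 1335 genes higher and 1366 lower, so list counts with the GC correction are to be read against these larger totals.

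**Figure D1:**
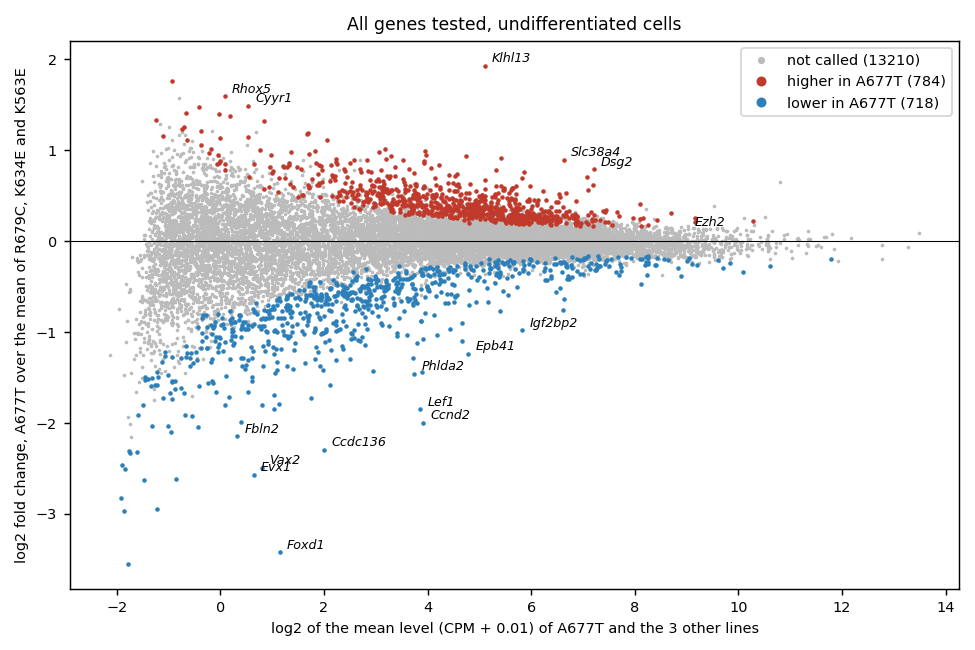
Every gene tested in undifferentiated cells, with the log2 of its mean level (CPM + 0.01) on the x axis and its log2 fold change in A677T over the mean of R679C, K634E and K563E on the y axis. Points in color are the 784 higher and 718 lower genes, and the lower ones reach farther from 0; the lowest are Astn1 at -3.55, which is under 1 CPM in both groups, and Foxd1 at -3.42, and the highest is Klhl13 at 1.93.

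The same contrast for each of the other lines against its 3 fellows called fewer genes, by a margin that depended on the processing. R679C differed from the mean of the other 3 lines at 7 genes (0.0476%), K634E at 194 (1.32%) and K563E at 201 (1.37%). These contrasts share libraries with the A677T one, and A677T is among the lines against which they are set. Set against single lines, A677T differed from R679C at 947 genes (6.44%), from K634E at 814 (5.53%) and from K563E at 1102 (7.49%). Without A677T replicate 3 the counts were 1320 for A677T, 14 for R679C, 622 for K634E and 469 for K563E, each against the other 3. With the GC correction as well they were 2222, 92, 1441 and 1448 in that order. Without A677T replicate 1 they were 819, 6, 131 and 120. The A677T counts against R679C, K634E and K563E singly were 459, 436 and 588 without that library, and as few as 346, 436 and 541 without 1 library of the line compared. The K634E and K563E counts against their fellows fell to as few as 47 and 50 without 1 of their own libraries.

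**Figure D2:**
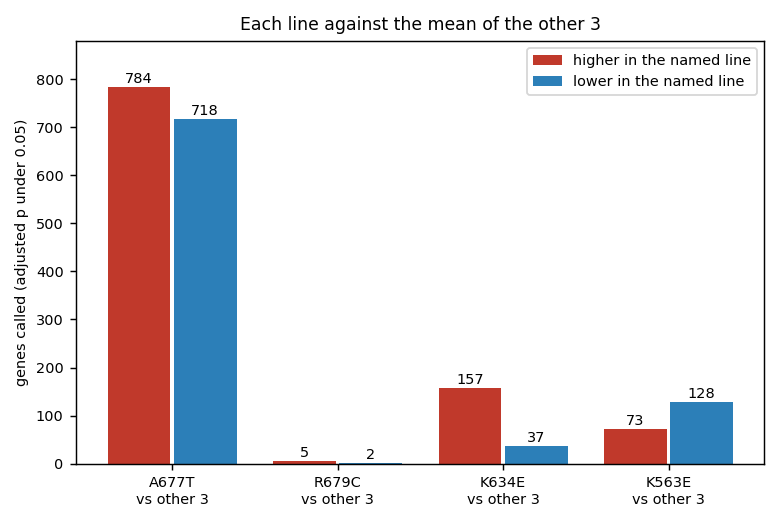
Bars give the number of genes called higher and lower in each line against the mean of the other 3, in undifferentiated cells. A677T has 784 and 718, against 5 and 2 in R679C, 157 and 37 in K634E and 73 and 128 in K563E.

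The core genes of PRC2 were not called. Ezh2, which counts reads of the endogenous allele and of any added EZH2 that aligns there, had 524, 504 and 602 CPM in A677T libraries, against 456 to 564 CPM in the 9 others with a median of 491 CPM. The groups overlapped, and the log2 fold change of 0.13 ± 0.06 (SE) was not called (edgeR adjusted p = 0.222). Eed, the subunit that reads methylated histone, differed by -0.001 ± 0.05 on the log2 scale, and Suz12, the scaffold subunit, by -0.03 ± 0.11. Suz12 was called lower with the GC correction (log2 fold change -0.16, adjusted p = 0.014). Ezh1, the paralog of Ezh2, was at 32.0 ± 2.55 CPM in A677T cells and had a log2 fold change of 0.15 ± 0.08, not called either. This count and the list counts below are to be read against 5.33% higher and 4.88% lower over all genes tested. Of 14 PRC2 subunit and cofactor genes tested, 2 were higher and none lower. These were Jarid2 (log2 fold change 0.16 ± 0.04, adjusted p = 0.0264) and Aebp2 (0.23 ± 0.06, adjusted p = 0.0332), both accessory subunits that help recruit PRC2, and the Aebp2 call did not hold without A677T replicate 3 (adjusted p = 0.155). Over 23 alternatives the Aebp2 call was lost in 11 and the Jarid2 call in 7. Jarid2 was not called without A677T replicate 1 or without replicate 2 (adjusted p up to 0.203 over the 23) and was called against no single line (adjusted p = 0.114, 0.0542 and 0.102 against R679C, K634E and K563E). After the GC correction 2 PRC2 genes were higher and 2 lower. The 17 tested genes of H3K27 demethylases and the trithorax group and the 11 of DNA methylation and TET enzymes had no call. Without A677T replicate 3, 1 DNA methylation gene was higher, and with the GC correction 3 genes of the first list were lower, and 1 of the second was higher and 3 lower.

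The transcription factor genes Foxd1 and Evx1 were the furthest below the other lines among the named genes. Foxd1, a forkhead factor of kidney stroma and retina (chromosome 13, 98354242 to 98359305, GRCm38), had 0.415, 0.418 and 0.246 CPM in A677T libraries, against 2.74 to 5.44 CPM in the 9 others with a median of 4.24 CPM. Evx1, a homeobox factor of the primitive streak (chromosome 6, 52313498 to 52318378), had 0.474, 0.372 and 0.431 CPM in A677T libraries, against 1.47 to 4.29 CPM in the others with a median of 2.63 CPM. Every A677T library lay below every other library for both genes, which was a condition of naming them by size. Foxd1 and Evx1 were 10.7-fold and 5.93-fold lower (log2 fold changes -3.42 ± 0.23 and -2.57 ± 0.24, edgeR adjusted p = 7.23e-07 and 1.48e-05). These levels rest on 20 reads of Foxd1 in A677T and 720 in the other libraries, and on 23 and 474 reads of Evx1. Vax2, a homeobox factor of the ventral eye, was at 0.534, 0.604 and 0.370 CPM in A677T libraries, against 1.85 to 4.12 CPM in the others (log2 fold change -2.49 ± 0.26).

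Promoter windows are printed for 3 lower genes, Foxd1, Evx1 and Hmga2, and for 1 higher gene, Cd55, because genes bound by Polycomb in mammals tend to have CG-rich starts. They were chosen after the values were seen, among named genes with a single RefSeq window (GRCm38.p6) whose start lies within 10 bases of the annotated gene start. Each runs from 250 bases before the start to 50 after it, with each CG in capitals. The windows are chr13:98353995-98354294 on the plus strand, chr6:52313248-52313547 on the plus strand, chr10:120476420-120476719 on the minus strand and chr1:130462695-130462994 on the minus strand.
Foxd1: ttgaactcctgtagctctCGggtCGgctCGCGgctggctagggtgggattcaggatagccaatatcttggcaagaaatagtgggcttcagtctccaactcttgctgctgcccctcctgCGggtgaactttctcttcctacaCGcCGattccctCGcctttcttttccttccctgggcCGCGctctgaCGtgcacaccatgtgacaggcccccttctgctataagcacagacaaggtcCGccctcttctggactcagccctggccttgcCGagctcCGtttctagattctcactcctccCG
Evx1: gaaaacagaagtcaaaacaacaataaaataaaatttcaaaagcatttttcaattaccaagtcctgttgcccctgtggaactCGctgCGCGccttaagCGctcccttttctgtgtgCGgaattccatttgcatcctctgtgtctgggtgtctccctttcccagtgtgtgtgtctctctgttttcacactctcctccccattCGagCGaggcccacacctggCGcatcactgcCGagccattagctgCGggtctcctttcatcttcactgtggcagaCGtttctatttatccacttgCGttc
Hmga2: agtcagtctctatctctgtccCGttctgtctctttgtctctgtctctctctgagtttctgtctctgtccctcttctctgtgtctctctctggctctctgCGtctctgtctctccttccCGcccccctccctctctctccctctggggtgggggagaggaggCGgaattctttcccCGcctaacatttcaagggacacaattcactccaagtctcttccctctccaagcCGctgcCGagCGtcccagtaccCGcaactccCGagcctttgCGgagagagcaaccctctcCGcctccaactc
Cd55: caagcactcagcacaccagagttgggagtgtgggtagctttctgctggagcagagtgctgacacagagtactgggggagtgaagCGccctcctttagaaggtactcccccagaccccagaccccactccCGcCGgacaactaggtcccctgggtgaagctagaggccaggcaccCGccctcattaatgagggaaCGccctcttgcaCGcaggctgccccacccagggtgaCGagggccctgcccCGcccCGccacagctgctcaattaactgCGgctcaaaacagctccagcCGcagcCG
The motif CG occurs 15 times in the Foxd1 window and 12 times in each of the others, lower or higher. Of the 32851 windows in the table, 34.6% hold at least 15 and 39.6% at least 12, with a median of 7. The 4 windows do not separate the 3 lower genes from the higher one.

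Of 33 developmental Polycomb targets tested, 3 were higher and 10 lower, with a median log2 fold change of -0.28 against 0.01 over all genes tested. Besides Foxd1 and Evx1, the lower ones included En2, a homeobox factor of the midbrain and cerebellum, at 1.72, 1.63 and 1.23 CPM in A677T libraries and 3.62 to 7.04 CPM in the others (log2 fold change -1.73 ± 0.18, adjusted p = 6.23e-05). Sox3, an early neural SOXB1 factor, was 1.8-fold lower, and Meis2, a Hox cofactor, 2.16-fold lower (adjusted p = 0.000517 and 0.00123). Meis2 was not called against K634E (adjusted p = 0.0851). Bcl11a, a zinc finger repressor, fell by 0.98 on the log2 scale. The 3 higher members were Gata2 (0.78 ± 0.19), Gata4 (0.85 ± 0.22) and Gli2 (0.26 ± 0.06), of which the first 2 are GATA factors of blood and endoderm and Gli2 transmits Hedgehog signals. None of these 3 calls held without A677T replicate 1 or without replicate 2 (adjusted p up to 0.0822, 0.126 and 0.0836 for Gata2, Gata4 and Gli2). Gata4 overlapped between the groups and was not called against R679C (adjusted p = 0.752). These counts cover only the 33 of 78 listed genes that passed the filter on low counts. A gene near the floor can pass that filter through the other 3 lines alone. Foxd1, for example, had 20 reads in A677T and 720 in the others. How far this sets the excess of lower members and the negative median was not tested. The call of T, the mesoderm factor brachyury, did not hold without A677T replicate 3 (adjusted p = 0.119) or in 9 other alternatives. Among the few Hox genes that passed the filter, Hoxc12 had 0.184 CPM in A677T cells and 0.555 CPM in the other lines, or 10 reads in A677T and 99 in the others. Its call (adjusted p = 0.0418) was lost in 11 of the 22 alternatives that gave an adjusted p, the fits without A677T replicate 1 or 2 among them (adjusted p up to 0.184), and it was not called against K634E or K563E. None of the 12 tested clustered protocadherin genes, whose reads may be shared between copies, was called, at a median log2 fold change of -0.54, and 1 was lower without A677T replicate 3.

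**Figure D3:**
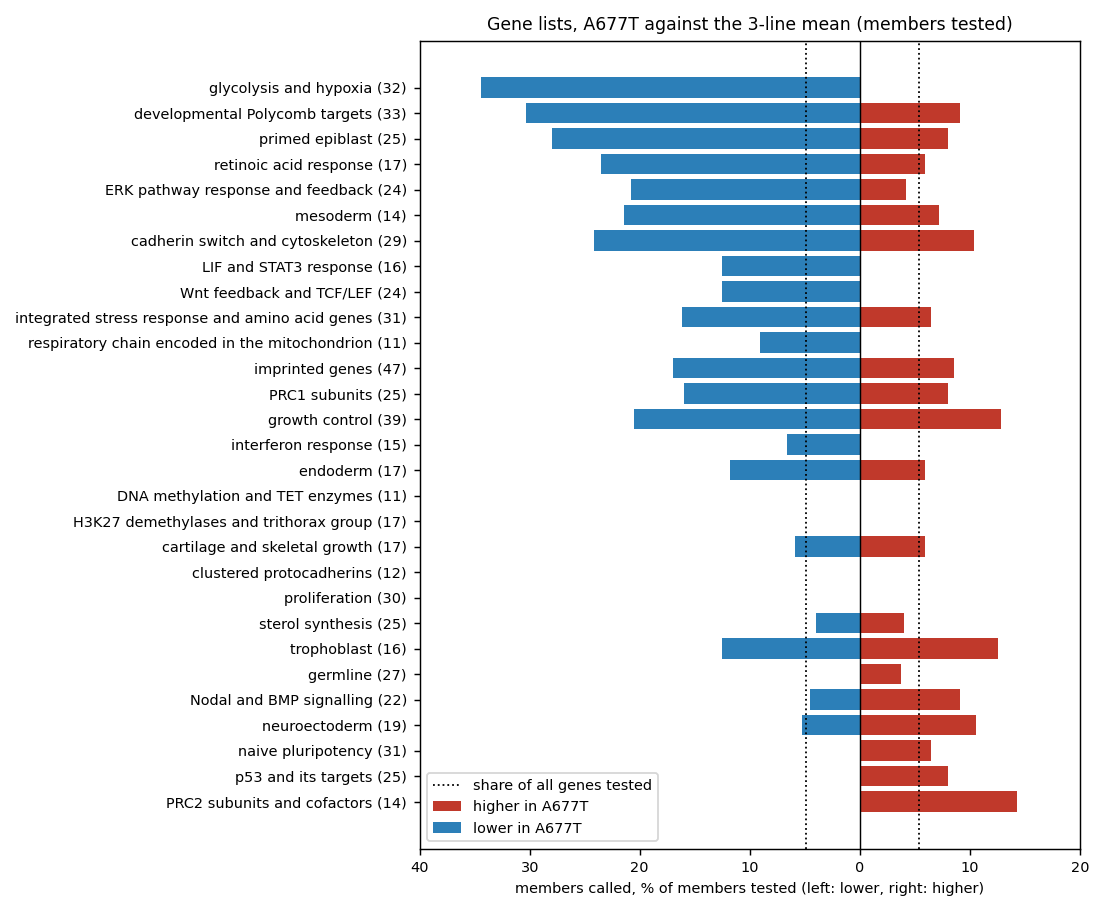
Bars give the share of tested members called lower (left) and higher (right) in A677T cells, for lists with at least 10 members tested, whose number is in brackets. Dotted lines mark the 4.88% lower and 5.33% higher among all genes tested; glycolysis and hypoxia (34.4%), Polycomb targets (30.3%) and primed epiblast genes (28%) have the largest shares of lower members in this fit, an order that changed without A677T replicate 3.

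Subunits of PRC1 were called in both directions, 2 higher (8%) and 4 lower (16%) of 25, against 5.33% and 4.88% over all genes tested. Bcorl1, a corepressor of variant PRC1, had 8.13, 6.46 and 6.59 CPM in A677T libraries, against 12.3 to 17.0 CPM in the others (log2 fold change -1.01 ± 0.12, adjusted p = 0.000127). Its relative Bcor was 1.46-fold lower (adjusted p = 0.000269), and Cbx2, which compacts chromatin, 1.49-fold lower (adjusted p = 0.00662). Cbx2 was not called against K634E (adjusted p = 0.126). Kdm2b, which brings variant PRC1 to CG-rich DNA, had 163 CPM in A677T cells and 197 CPM in the other lines (adjusted p = 0.0228). The higher members were Scmh1 and Bmi1, and the Kdm2b and Bmi1 calls did not hold without A677T replicate 3 (adjusted p = 0.0685 and 0.165). The Scmh1 call did not hold without A677T replicate 1 or 2 (adjusted p up to 0.131 over the 23 alternatives). The GC correction gave 4 higher and 7 lower PRC1 genes, in a fit that called 1335 higher and 1366 lower over all genes.

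Genes that control growth were called in both directions, with 5 higher and 8 lower of 39 and a median log2 fold change of 0.05. Ccnd2, the cyclin D2 gene that promotes entry into the cell cycle, had 6.47, 6.46 and 4.74 CPM in A677T libraries, against 16.8 to 33.1 CPM in the others with a median of 22.0 CPM. Hmga2, an architectural chromatin protein whose loss makes mice small, had 4.33, 3.44 and 4.74 CPM in A677T libraries, against 8.76 to 12.7 CPM in the others. Neither gene's groups overlapped, which naming by size required of Ccnd2. The log2 fold changes were -1.999 ± 0.13 for Ccnd2 and -1.43 ± 0.14 for Hmga2 (edgeR adjusted p = 7.16e-07 and 2.26e-05). The cell cycle inhibitors Cdkn2a and Cdkn2b, known PRC2 targets in other cells, were also lower, with Cdkn2a at 7.83 CPM in A677T cells and 16.3 CPM in the other lines and Cdkn2b at 0.416 CPM in A677T cells and 1.01 CPM in the other lines (adjusted p = 9.17e-06 and 0.0196), and the Cdkn2b call did not hold without A677T replicate 3 (adjusted p = 0.086). Igfbp4, which binds insulin-like growth factors, was 2.37-fold lower, and Grb10, an imprinted inhibitor of insulin receptor signalling, fell by 0.77 on the log2 scale. Irs2, an adaptor of the insulin receptor, went the other way, at 22.4, 21.8 and 17.9 CPM in A677T libraries and 8.91 to 13.4 CPM in the others (log2 fold change 0.95 ± 0.13, adjusted p = 0.000375). Ccn1 and Ccn2, matricellular genes downstream of YAP, were 1.55-fold and 1.35-fold higher, but overlapped between the groups and were not called against K563E (adjusted p = 0.143 and 0.287). The Ccn2 call did not hold with K634E left out of the mean (adjusted p = 0.0509). Igf2bp2, which binds the messenger RNA of insulin-like growth factor 2 but is no member of the list, was at 39.3, 34.6 and 40.0 CPM in A677T libraries and 64.8 to 88.0 CPM in the others (log2 fold change -0.98 ± 0.07, adjusted p = 7.23e-07). None of the 30 tested proliferation genes was called, and 1 was higher without A677T replicate 3 or with the GC correction.

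Of 47 imprinted genes tested, 4 were higher and 8 lower, with a median log2 fold change of -0.05. Phlda2, which restrains placental growth, had 7.47, 6.28 and 7.64 CPM in A677T libraries, against 16.7 to 22.2 CPM in the others (log2 fold change -1.46 ± 0.09, adjusted p = 5.67e-07). Slc38a4, an amino acid transporter of the placenta, had 131, 120 and 134 CPM in A677T libraries, against 60.6 to 76.7 CPM in the others (0.90 ± 0.06, adjusted p = 1.01e-06). The 2 genes moved in opposite directions with no overlap between groups, and naming by p required that lack of overlap. Ndn and Magel2, neighbours in the Prader-Willi region, were both lower: Ndn had 3.22 CPM in A677T cells and 6.15 CPM in the other lines, and Magel2 had 4 reads in the A677T libraries together and 84 in the others. The Magel2 call (adjusted p = 0.0152) did not hold without A677T replicate 1 (adjusted p = 0.0709), and DESeq2 gave it no adjusted p. Peg10, a retrotransposon-derived gene needed in the placenta, was 1.35-fold higher but not called against K563E (adjusted p = 0.0838).

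**Figure D4:**
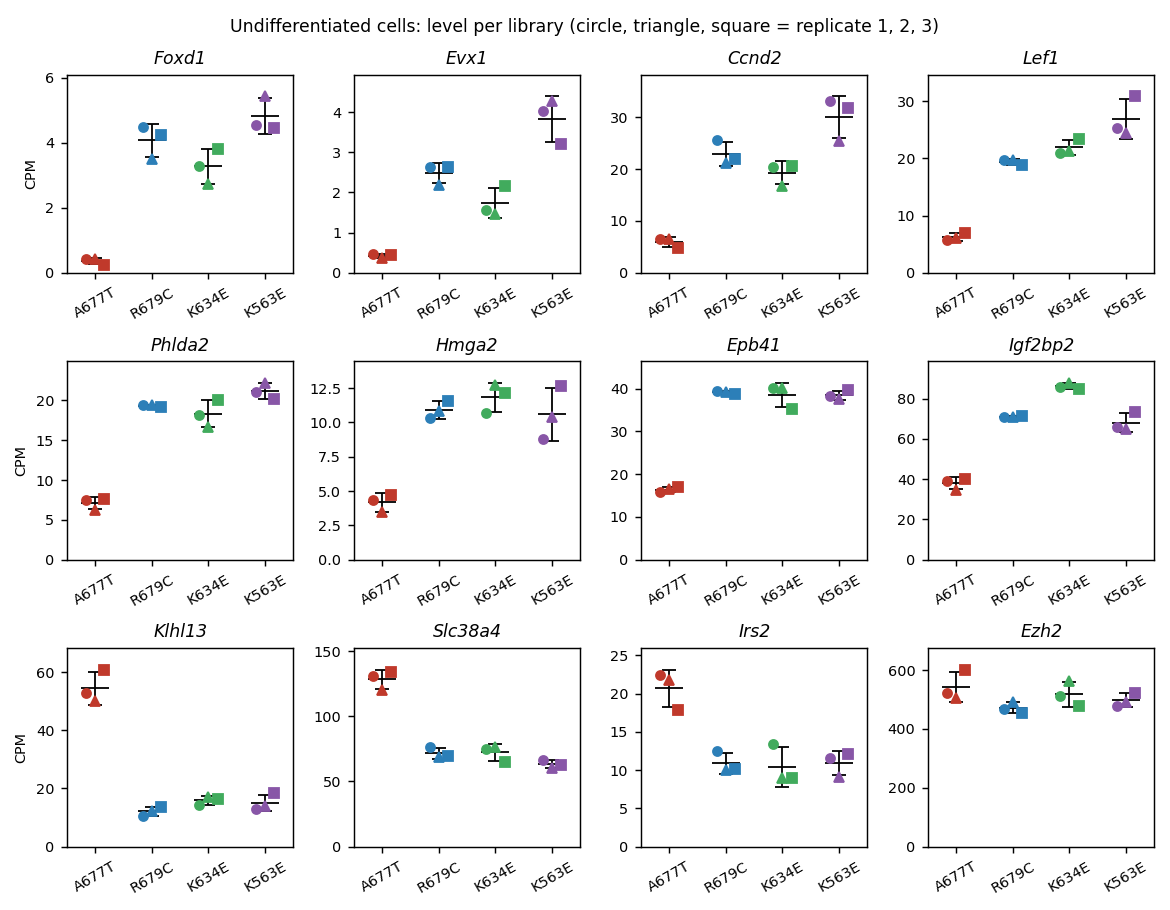
CPM per library of 12 genes in undifferentiated cells, with A677T at the left of each panel; markers are libraries and bars the mean ± SD (n = 3). In the first 8 panels every A677T library lies below all others, in Klhl13, Slc38a4 and Irs2 above all others, and in Ezh2 the lines overlap. Genes named by size or p were chosen for such separation, so for them it is no separate result.

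Genes of the primed epiblast, the state that follows naive pluripotency, included 2 higher and 7 lower of 25. Counts differed between the single lines: 2 were higher and 7 lower than in R679C, 2 and 2 than in K634E, and 1 and 8 than in K563E. The leading lower member was Lef1, a partner of β-catenin in Wnt signalling, at 5.75, 6.04 and 6.96 CPM in A677T libraries and 18.9 to 30.9 CPM in the others (log2 fold change -1.85 ± 0.10, adjusted p = 1.65e-07). Etv5, an ETS factor downstream of FGF signalling, was at 410 CPM in A677T cells and 502 CPM in the other lines, and Myc at 50.1 CPM in A677T cells and 63.9 CPM in the other lines (adjusted p = 0.00455 and 0.00298). Myc was lower than in R679C and K563E (adjusted p = 0.00984 and 0.000106) and not called against K634E (adjusted p = 0.889), and its call did not hold with K563E left out of the mean (adjusted p = 0.132). Sox4 and Foxp1 were the 2 higher members, of which Sox4 was not called against K634E (adjusted p = 0.0546) nor Foxp1 against K563E (adjusted p = 0.0693). Without A677T replicate 3, 4 members were lower and 4 higher, and with the GC correction 9 were lower and 4 higher. Of the 31 naive pluripotency genes, only Tcl1 (0.49 ± 0.06, adjusted p = 0.000319) and Nr5a2 (0.20 ± 0.06, adjusted p = 0.0423) were called, both higher, and the Nr5a2 call was lost in 14 of 23 alternatives, such as without A677T replicate 3 (adjusted p = 0.172). Tcl1 was not called against K634E (adjusted p = 0.0582), and Nr5a2 was called against no single line. With the GC correction 3 naive genes were higher and 4 lower.

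Among signalling lists, 1 gene was higher and 5 lower of 24 that respond to or feed back on ERK, 0 and 3 of 24 in Wnt feedback and TCF/LEF, 0 and 2 of 16 that respond to LIF and STAT3, and 2 and 1 of 22 in Nodal and BMP signalling. Spry4, an inhibitor of ERK signalling, was at 95.0 ± 7.67 CPM in A677T cells, 134 ± 7.3 in R679C, 103 ± 5.72 in K634E and 142 ± 5.38 in K563E (SD, n = 3 each). It was lower than in R679C and K563E (adjusted p = 0.00183 and 0.000362) and not called against K634E (adjusted p = 0.466). Over the whole ERK list, 1 member was higher and 5 lower than in R679C. Against K634E 1 was higher and 0 lower, and against K563E 0 were higher and 8 lower. Sp8, a zinc finger factor of the Wnt list, was 2.74-fold lower, and Inhbb, a subunit of activin B, 2.28-fold lower. Of the ERK list 3 genes were called lower without A677T replicate 3, and of the LIF and STAT3 list none, with 1 higher. With the GC correction the counts were 2 higher and 8 lower for ERK, 2 and 4 for Wnt, 1 and 3 for LIF and STAT3, and 5 and 4 for Nodal and BMP. Retinoic acid response genes had 1 higher and 4 lower of 17, and 2 were lower without A677T replicate 3 and 8 with the GC correction. Among the lower ones was Meis2, at 2.19, 2.04 and 3.39 CPM in A677T libraries and 3.46 to 7.25 CPM in the others (log2 fold change -1.11 ± 0.18, adjusted p = 0.00123). It was not called against K634E (adjusted p = 0.0851).

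Glycolysis and hypoxia genes had 0 higher and 11 lower of 32 and a median log2 fold change of -0.21. Their changes were small, apart from Eno2, a neuronal enolase (-1.01 ± 0.16). Pfkp, a phosphofructokinase, had 409 CPM in A677T cells and 542 CPM in the other lines (adjusted p = 0.000315), and Pgk1, phosphoglycerate kinase, 957 CPM in A677T cells and 1214 CPM in the other lines (adjusted p = 0.00833). Counts differed between the single lines: 11 members were lower in A677T than in K634E, 3 than in R679C and 4 than in K563E. Without A677T replicate 3, 2 members were higher and 7 lower, and with the GC correction 1 was higher and 17 lower. The integrated stress response and amino acid list had 2 higher and 5 lower of 31 against the mean, with 11 lower and 0 higher against K634E, 3 lower and 2 higher against R679C and 2 lower and 5 higher against K563E. In the fit without A677T replicate 3, 3 of its members were lower. Cbs, which makes cystathionine, was lower against every line (1.6-fold against the mean, adjusted p = 0.000973), while of the single lines Vldlr and Stc2 were called against K634E alone, and not against the mean without A677T replicate 3 (adjusted p = 0.0902 and 0.154) or in 9 other alternatives each.

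Genes of cell contact and the cytoskeleton had 3 higher and 7 lower of 29. Epb41, which links spectrin to actin at the membrane, had 15.7, 16.5 and 17.1 CPM in A677T libraries, against 35.2 to 40.2 CPM in the others (log2 fold change -1.24 ± 0.07, adjusted p = 1.65e-07); it is no member of the list. Cldn6, a tight junction claudin, was 2.14-fold lower, and Lgals1, a galectin, 1.69-fold higher. The basement membrane collagens Col4a1 and Col4a2, adjacent genes listed with endoderm, were 2.11-fold and 2.32-fold lower. The cell contact list had, without A677T replicate 3, 5 higher and 5 lower, and with the GC correction 7 and 8. The endoderm list had 1 higher and 2 lower of 17, mesoderm 1 and 3 of 14, neuroectoderm 2 and 1 of 19, trophoblast 2 and 2 of 16, and fibroblast and feeder cells 0 and 2 of 7. The 8 feeder markers summed to 0.178 to 0.604 CPM in A677T libraries and 0.776 to 1.67 CPM in the others, with 6 of them under 0.1 CPM, and the 9 markers of 2-cell-like cells were all under 0.1 CPM; their part in other results was not tested. Germline genes had 1 higher and 0 lower of 27, cartilage and skeletal genes 1 and 1 of 17, p53 and its targets 2 and 0 of 25, interferon genes 0 and 1 of 15, sterol synthesis 1 and 1 of 25, and mitochondrially encoded genes 0 and 1 of 11. Several of these shares lie near the 5.33% higher and 4.88% lower over all genes, such as sterol synthesis at 4% in each direction. Without A677T replicate 3 the lower members numbered 4 in endoderm, 1 in mesoderm, 2 in neuroectoderm, 1 in trophoblast, 1 in fibroblasts, 2 in germline and 4 among mitochondrially encoded genes. Mesoderm then had 2 higher members, the interferon list 1 and sterol synthesis no call. With the GC correction the lower members numbered 6 in sterol synthesis, 5 among mitochondrially encoded genes, 3 in endoderm and 2 each in neuroectoderm, germline and interferon, and the higher ones 4 among p53 targets, 3 each in neuroectoderm, trophoblast and cartilage, and 2 each in mesoderm, germline and interferon. The p53 list then also had 1 lower member.

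Further genes lower in A677T cells at the top of the ranking by size were Ccdc136, Fbln2, Cd34, Mpp2, Galnt9, Nfasc and Fign, with log2 fold changes of -2.30 to -1.81 (edgeR adjusted p = 1.66e-06 to 0.00574). Fbln2 is a matrix fibulin, Cd34 a surface marker of blood progenitors, Nfasc an adhesion protein of axons and Fign a microtubule-severing enzyme. Ranked by p, Dpysl5, a collapsin response mediator of neurons, and Rimklb, a ligase that makes N-acetylaspartylglutamate, stood at -1.44 ± 0.11 and -1.10 ± 0.07. Of the 17 genes named by size or p as lower, 6 lie on chromosome 6, which also holds Ezh2: Evx1, Vax2, Ccdc136, Fbln2, Ccnd2 and Rimklb. That chromosome holds 727 of the 14712 genes tested and 58 of all 718 lower genes. On chromosome 6, 54 genes were higher and 58 lower of 727 tested, or 15.4%, against 10.2% over all genes and 7.72% to 12.4% on each other autosome and the X chromosome; this was not tested. Along it in windows of 30 Mb, 21.8%, 16.2%, 14.6%, 13.4% and 14.2% of genes were called, and Ezh2 lies in the second window. The window medians of the log2 fold change were -0.07 to 0.11.

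The largest increase among the named genes was that of Klhl13, an X-linked adaptor of a cullin ubiquitin ligase (chromosome X, 23219271 to 23365082), which had 52.7, 49.9 and 60.9 CPM in A677T libraries, against 10.6 to 18.3 CPM in the others with a median of 14.0 CPM. It was 3.82-fold higher (log2 fold change 1.93 ± 0.10, adjusted p = 1.45e-07) and far above every other library. Naming by size required no overlap with them. Rhox5, an X-linked homeobox gene, followed with 1.96, 1.77 and 0.985 CPM in A677T libraries, against 0.103 to 0.955 CPM in the others; it was called against the mean (1.59 ± 0.38, adjusted p = 0.0147) but against no single line (adjusted p = 0.0517 to 0.0829), and its call did not hold without A677T replicate 1 (adjusted p = 0.0937). Heph, a ferroxidase and also X-linked, was 2.61-fold higher but not called against K634E (adjusted p = 0.137). On chromosome X as a whole, 28 genes were higher and 33 lower of 509, or 12% called, against 10.2% over all genes and 12.4% on chromosome 18. Cyyr1, Zfp951, Ttll6, Gulp1, Hist1h1d, Cd55, Pcbd1, Platr14 and Bche rose by log2 fold changes of 0.99 to 1.49. Among more abundant genes, Dsg2, a desmosomal cadherin, had 183, 179 and 197 CPM in A677T libraries, against 89.8 to 137 CPM in the others (0.79 ± 0.06, adjusted p = 1.73e-06). Lncenc1, a long noncoding RNA of embryonic stem cells, was 1.89-fold higher, and Slc44a2, a choline transporter-like protein, and Palld, an actin-binding protein, were 1.73-fold and 1.62-fold higher. Of the 34 genes named by size or p, 28 were called against each of the 3 lines singly, 16 of 17 lower and 12 of 17 higher. Their choice, which asked that no A677T library overlap the others, largely sets this count.

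The same contrast in the ATRA libraries, which share no library with the undifferentiated ones, called 1567 of 15970 genes (9.81%), with 808 higher (5.06%) and 759 lower (4.75%). Without A677T replicate 1, 2 or 3 of that state the count was 875, 838 or 1037. Of the 784 genes higher in undifferentiated A677T cells, 774 were tested after ATRA, and 257 of them (33.2%) were called higher again and 4 lower. Of the 718 lower genes, 695 were tested and 247 (35.5%) were called lower again and 23 higher. Both shares lie above the 5.06% and 4.75% called in those directions over all genes, and the lines are the same in both states. Of the 34 genes named by size or p, 32 were tested after ATRA and 25 were called with the same sign. Klhl13 kept its difference, at 71.3, 70.7 and 76.9 CPM in A677T after ATRA and 14.1 to 23.8 CPM in the others. Hmga2 did so too, at 15.9, 14.9 and 15.9 CPM in A677T after ATRA and 29.98 to 54.6 CPM in the others.

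The difference between the states was called at 321 of 16553 genes (1.94%). The count was 195 or 208 without undifferentiated A677T replicate 1 or 3, and 183 or 167 without ATRA-treated A677T replicate 1 or 2. Lef1 had the smallest adjusted p of the named genes: after ATRA it had 39.6, 31.9 and 36.9 CPM in A677T libraries, against 34.8 to 50.3 CPM in the others, and its log2 fold change was -0.23 ± 0.08 (edgeR adjusted p = 0.0783), against -1.85 in undifferentiated cells (adjusted p of the difference 1.66e-08). Foxd1 was low in every line after ATRA, at 0.435, 0.236 and 0.277 CPM in A677T libraries and 0 to 0.830 CPM in the others, and the groups overlapped. Sox3 and Myc were lower in undifferentiated A677T cells; after ATRA Sox3 was not called (0.15 ± 0.07) and Myc was slightly higher (0.18 ± 0.05, adjusted p = 0.0221). Naive pluripotency genes had 2 higher and 0 lower of 31 in undifferentiated cells and 12 higher and 0 lower of 30 after ATRA. Esrrb, a nuclear receptor of that list, had a log2 fold change of -0.06 in undifferentiated cells (not called) and 1.22 after ATRA (adjusted p = 6.43e-08).

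**Figure D5:**
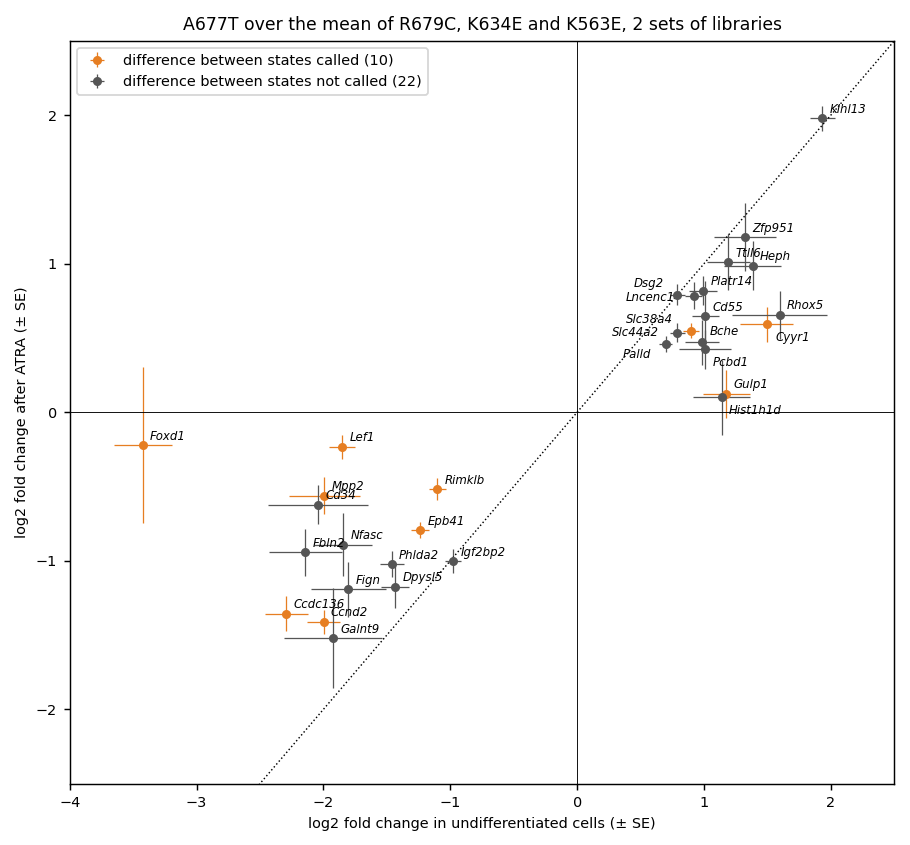
Log2 fold changes (± SE) of A677T over the mean of R679C, K634E and K563E in undifferentiated cells (x) and after ATRA (y), for the 32 genes named by size or p and tested in both. On the dotted line both are equal; Klhl13 and Igf2bp2 lie on it, and Lef1 and Foxd1 lie near 0 after ATRA.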

How the data were processed

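Poly(A) RNA of mouse embryonic stem cells was sequenced, per the labels' protocols. The submitters' processing notes name the build mm10 and, with no role or order, DESeq2 1.38.3, featureCounts 1.6.4, STAR 2.7.3a and cutadapt 3.2. Strandedness and the handling of shared reads were not given in the sources used here. The authors deposited raw counts per gene, without normalization. Of the columns, 6 match no label and were not used, and Y728 was not analysed here. Symbols and positions come from GENCODE M21 on GRCm38, which holds 55141 of the 55401 identifiers.

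The members and lists were chosen with earlier results of these data known. The test was edgeR 4.0.16 under R 4.3.3 (filterByExpr, TMM, robust quasi-likelihood) on the 12 undifferentiated libraries, with 1 mean per line and 8 residual degrees of freedom; p-values are Benjamini-Hochberg adjusted over all genes tested. The ATRA contrast used the 12 ATRA libraries (15787148 to 26253316 counts), and the difference between states all 24 libraries. The statistics were checked on simulated data, which had no GC trend, outlying library or replicate effect. That check therefore cannot show how such features affect the calls. Replicates of each line differed by more than counting error. Counts of reads without molecular identifiers carry counting error plus amplification.

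Genes with an approved-style symbol (no predicted models or clone names) were named among those called, at 1 CPM or more, with no overlap between A677T and the 9 other libraries, and called with the same sign without A677T replicate 3 and with a GC correction (lowess per library, span 0.3): 12 per direction by size and 5 by p. Up to 3 called members per direction were named for each of the 32 lists, and Ezh2, Ezh1, Eed and Suz12 always. Other genes were named after their values were seen, and some results are not reported here. Alternatives were RLE scaling, no filter, DESeq2 1.42.0, GC correction, a replicate block, and all libraries of the state except Y728 in 1 fit. Further alternatives left out each library or each line of the mean.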

Additional observations from a re-analysis of the deposited data

Results flagged for a closer look

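The A677T difference from the mean of R679C, K634E and K563E depended on the state at the named genes given here, by the test of the difference itself (edgeR, adjusted p under 0.05 over 16553 genes). The value given for each is the log2 fold change in undifferentiated cells minus that after ATRA. The largest adjusted p of a difference was 0.0496 (Scmh1). Over all genes the count of 321 fell to as few as 167 without 1 library, and which of these genes kept the call is not given.

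It was above 0 for Id2 1.09, Gulp1 1.06, Gata2 0.97, Bmi1 0.96, Cyyr1 0.91, Irs2 0.74, Peg10 0.49, Foxp1 0.48, Hsd17b7 0.47, Sox4 0.42, Slc38a4 0.36, Scmh1 0.33, Itgb1 0.28.

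It was below 0 for Epb41 -0.44, Spry4 -0.44, Myc -0.50, Ccnd2 -0.57, Rimklb -0.57, Nr5a2 -0.69, Meis2 -0.74, Ccdc136 -0.93, Sox3 -0.99, Igfbp4 -1.11, Bcl3 -1.21, Etv2 -1.34, Mpp2 -1.42, Lef1 -1.61, Inhbb -2.68, Foxd1 -3.20.

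For Bcl3, a target of STAT3, A677T libraries had 33.1 to 38.8 CPM and the others 39.6 to 47.3 CPM in undifferentiated cells, while after ATRA A677T libraries had 3.16 to 4.73 CPM and the others 1.51 to 2.92 CPM. The Bcl3 call in undifferentiated cells was lost in 10 of 23 alternatives, such as without A677T replicate 3 (edgeR adjusted p = 0.0738), and it was called there against no single line (adjusted p = 0.184, 0.0909 and 0.0564 against R679C, K634E and K563E). For Id2, an inhibitor of bHLH factors, the log2 fold change was 0.50 in undifferentiated cells and -0.58 after ATRA, and the call in undifferentiated cells did not hold without A677T replicate 3 (edgeR adjusted p = 0.211). Inhbb was not tested in the ATRA fit alone, since its counts there did not pass the filter. Etv2 had 34 reads in the undifferentiated A677T libraries, and its call there was lost in 11 of 23 alternatives. The calls of Scmh1 and Hsd17b7 in undifferentiated cells were lost in 4 and 2 of 23.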

How the results depend on the processing

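Among recomputed counts of called genes, 116 stayed within 1.5 times the reported count and 82 did not. Counts are given in the order A677T against the mean, against R679C, K634E and K563E singly, then R679C, K634E and K563E each against the other 3 lines, then A677T after ATRA and the difference between states. The GC correction gave 2701, 1795, 1973, 2539, 53, 995, 1237, 2839 and 815. Fitting all libraries of the state except Y728 gave 2416, 1748, 1572, 2055, 91, 661 and 653 for the first 7. With no low-count filter the other lines against their fellows had 59, 378 and 354 calls, and with DESeq2 51, 402 and 445, with 488 for the difference between states. An alternative chosen after seeing the data, the GC correction without A677T replicate 3, gave 2222, 1604, 1874, 2200, 92, 1441 and 1448. Leaving out 1 library at a time gave ranges of 819 to 1692, 346 to 1183, 436 to 1101, 541 to 1391, 1 to 14, 47 to 622, 50 to 469, 838 to 1890 and 167 to 371. The cause was not tested.

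The replicate numbers were not taken as pairing the samples. The labels tie them to nothing shared, and not every same-numbered pair of undifferentiated libraries deviated together. Pairing among the ATRA libraries was not tested. Among the 12 undifferentiated libraries, deviations of same-numbered ones correlated at -0.21 to 0.45, over 0.1 in 11 of 18 pairs. Those of others correlated at -0.4 to 0.33. As a hint from the data, 6 of 12 libraries matched their own number best. With the replicate block the first count was 1830, and K634E and K563E against their fellows had 318 and 312. The last 2 counts were 3229 and 735, against 1567 and 321 without the block. The block with the GC correction gave 3036, 2124, 2228, 2960, 86, 1250, 1566, 3581 and 1141.

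Of the 106 named genes called, 67 were called in all 23 alternatives. The sign turned only for Eed and Suz12, neither called: Eed was at 0.03 without K563E in the mean and at -0.061 to 0.028 without single libraries (0.017 without A677T replicate 1, 0.001 without R679C or K563E replicate 2), and Suz12 at -0.229 to 0.08 without single libraries (0.03 without A677T replicate 1). Genes under 1 CPM rest on few reads, and 3 libraries per line limit the precision.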
